A study of Capra hircus with 2 samples.

Results

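The 8 miRNAs described here, miR-127, miR-379, miR-411, miR-495, miR-487b, miR-382, miR-369-3p and miR-410, come from the imprinted DLK1-DIO3 locus. They were taken by name, with earlier results of these data known, and they were followed in the mammary gland of Laoshan dairy goats (Capra hircus) at 2 stages, peak lactation (day 90 after kidding) and late lactation (day 210). All goats were 4 years old and in the third lactation, and they carried no treatment or engineered allele. Each stage was represented by 5 goats whose RNA was combined into 1 library, so each value below is that of 1 library. The paper describes the use of 5 goats and does not state outright whether the same animals were sampled at both stages. No test across goats was possible, and the stage cannot be told apart from the pool or the library. The files list sequence tags, which are distinct reads with their counts, and carry no miRNA names. A tag was assigned to a member when it held a 16-nt stretch of that miRNA, and all 8 members were found, with 615 distinct tags among 659118 in the series.

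The DLK1-DIO3 locus is imprinted, which means that each of its genes is read from the copy of 1 parent. The paternal copy gives the protein-coding genes DLK1, RTL1 and DIO3, while the maternal copy gives long non-coding RNAs and a large number of miRNAs, which are thought to be cut from long shared transcripts. The locus is well known in small ruminants, since the muscular hypertrophy of callipyge sheep maps to it. Each miRNA recognises its target mRNAs mainly through the seed, nt 2 to 8 of its sequence. In the ARS1.2 goat assembly of RefSeq, 45 of 264 annotated miRNA genes lay between DLK1 and DIO3, and all 8 members were among them. In this order MIR127 was number 4, MIR379 number 8, MIR411A number 9, MIR495 number 19, MIR487B number 28, MIR382 number 33, MIR369 number 42 and MIR410 number 43. MIR127 was 1 of 4 miRNA genes within the interval of RTL1. MIR379 and MIR411A were direct neighbours, as were MIR369 and MIR410. A gene named MIR411B was number 11, and the reads of miR-411 were placed at MIR411A without a comparison with it.

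The most abundant tag of each member is given first, since these are the molecules that were counted. They are written 5′ to 3′ with the letters of the files, in the order of the genes, and the seed is in capitals.
miR-127: tCGGATCCgtctgagcttggc
miR-379: tGGTAGACtatggaacgtagg
miR-411: atAGTAGACcgtatagcgtacg
miR-495: aAACAAACatggtgcacttcttt
miR-487b: aATCGTACagggtcatccactt
miR-382: gAAGTTGTtcgtggtggattcg
miR-369-3p: aATAATACatggttgatcttt
miR-410: aATATAACacagatggcctgt
The 8 seeds were 8 different sequences. Those of the neighbours miR-379 and miR-411 differed in their first letter alone. The most abundant tag of miR-411 began 1 nt before nt 1 of the conserved miRNA, a position written nt 0 below, and its seed is shown at the conserved place.

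The 8 miRNAs did not move as a unit between the libraries. Levels are reads per 1000000 clean reads (RPM), and ratios are late over peak lactation on the log2 scale with 95% exact binomial intervals, which cover counting error only. The log2 ratio was above 0 for 5 members and below 0 for 3, and it spanned 2.83 log2 units from miR-127 to miR-495. A member was called when its RPM differed at least 2-fold with P below 0.01 by the Audic-Claverie formula, which compares 2 libraries and not 2 stages. By this rule 3 members were called higher in the late library (miR-411, miR-495 and miR-487b), 0 were called lower and 5 were not called. The count called higher was 1 when at least 10 RPM was required in one library, since miR-495 and miR-487b stayed under it, and 2 when 1 mismatch was allowed in the tags, since miR-411 then lost its call. All 8 had at least 1 RPM in one library. Among all 12039 groups of tags with the same first 18 nt that passed this limit, 31.2% were called higher and 25.8% were called lower, so calls in either direction were common in these libraries. The median log2 ratio was 0.41 over the 8 members and 0.05 over all groups.

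**Figure D1:**
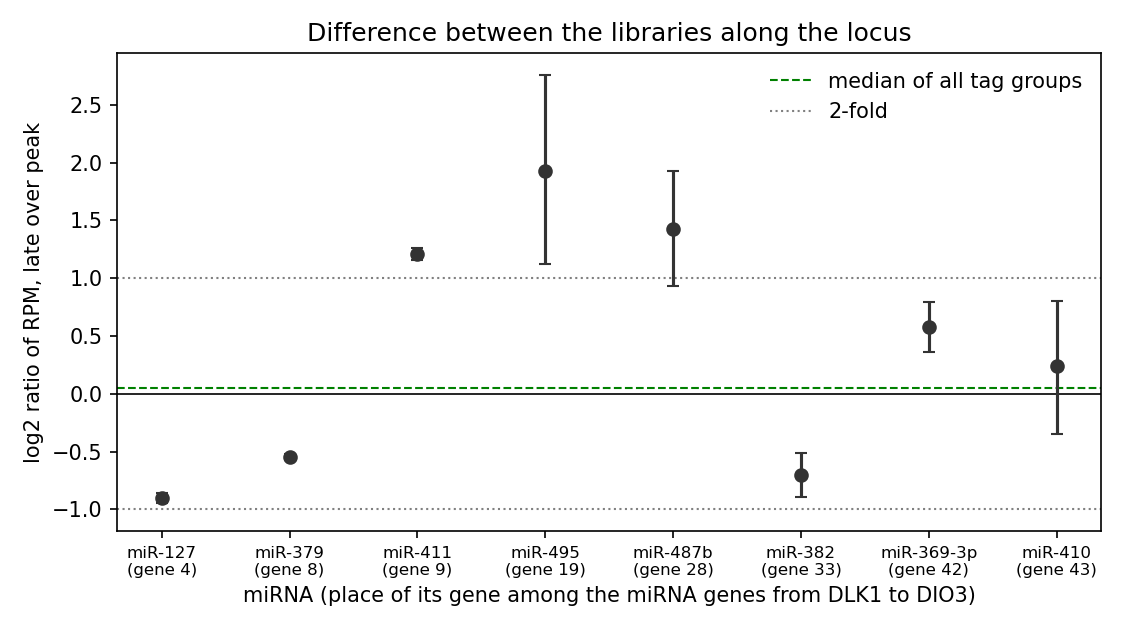
The log2 ratio of RPM, late over peak lactation, is plotted for each member in gene order from DLK1 to DIO3, with bars for 95% binomial intervals of counting error in 1 library per stage. Members lie on both sides of 0 along the locus, from -0.90 for miR-127 to 1.93 for miR-495, beside a median of 0.05 for all tag groups (dashed) and the 2-fold limits (dotted).

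The pair of abundant members lay on the lower side. miR-379 was the most abundant member, with 69970 reads in the peak library and 18601 in the late library, or 3674 and 2518 RPM. Its log2 ratio was -0.54 (interval -0.57 to -0.52). miR-127, which is antisense to RTL1 and can direct the cleavage of its mRNA, had 24595 and 5100 reads, or 1291 and 691 RPM. The log2 ratio of miR-127 was -0.90 (-0.95 to -0.86), just under the 2-fold limit. Both intervals lay below 0, although neither miRNA reached the limit for a call. Together miR-379 and miR-127 gave 92.3% of the reads of the 8 members in the peak library and 79.4% in the late library. The sum of the 8 members was 5380 and 4040 RPM, a log2 ratio of -0.41, so the sum was below 0 while the median of the members was above 0.

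miR-382 was the third member with a ratio below 0. It had 1190 reads in the peak library and 284 in the late library, or 62.5 and 38.5 RPM. Its log2 ratio was -0.70 (-0.89 to -0.51), with P = 1.49e-14 by the exact Audic-Claverie formula, and it was not called because the difference was under 2-fold. Its gene is number 33 in the locus, with 28 miRNA genes between it and MIR127 and 24 between it and MIR379.

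miR-411 was the abundant member on the higher side. It had 6040 reads in the peak library and 5426 in the late library, or 317 and 735 RPM. Its log2 ratio was 1.21 (1.16 to 1.26), and it was called higher. This count leaves out reads with a letter change in the seed that is described below, and with them the log2 ratio was 0.91 (0.86 to 0.95) and the call was lost. The level of miR-411 thus exceeded that of miR-127 in the late library and lay below it in the peak library.

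miR-495 and miR-487b were called higher from few reads. miR-495 had 23 reads in the peak library and 34 in the late library, or 1.21 and 4.60 RPM. Its log2 ratio was 1.93 (1.12 to 2.76), with P = 1.13e-06 by the exact Audic-Claverie formula. miR-487b had 69 and 72 reads, or 3.62 and 9.75 RPM. The log2 ratio of miR-487b was 1.43 (0.93 to 1.93), with P = 1.17e-08 by the same exact formula. The lower bound for miR-487b was below 2-fold and that for miR-495 was above it. The size of both ratios depended on which tags were counted. With the most abundant tag alone, an alternative chosen after the data were seen, the log2 ratio was 3.17 for miR-495 (4 and 14 reads) and 2.32 for miR-487b (15 and 29 reads).

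The members encoded nearest to DIO3 had ratios above 0 that were under 2-fold. miR-369-3p, which is known to bind AU-rich elements of mRNAs, had 484 reads in the peak library and 281 in the late library, or 25.4 and 38.0 RPM. Its log2 ratio was 0.58 (0.36 to 0.80), with P = 1.64e-07 by the exact Audic-Claverie formula, and it was not called because the difference was under 2-fold. miR-410 had 85 and 39 reads, or 4.46 and 5.28 RPM. The log2 ratio of miR-410 was 0.24 (-0.34 to 0.81), with P = 0.438 by the exact Audic-Claverie formula, and a difference was not detectable at this depth. miR-410 was the only member of the 8 whose interval included 0.

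**Figure D2:**
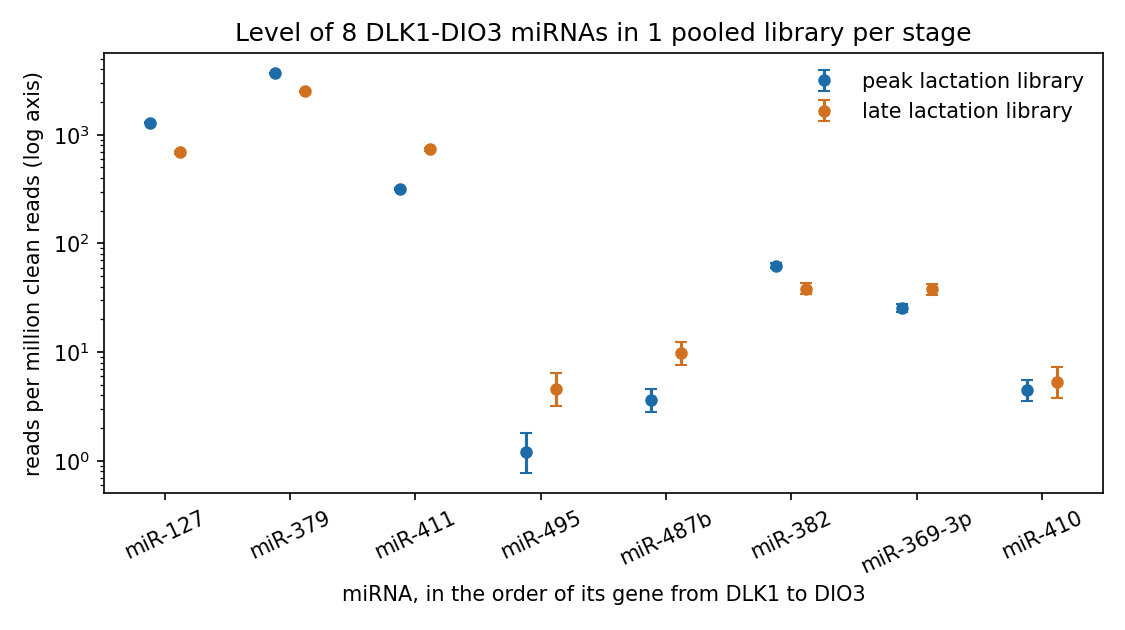
The level of each member in the peak and the late lactation library is plotted as RPM on a log axis, with 95% Poisson intervals of the counts, 1 library per stage. miR-379 is the highest in both libraries at 3674 and 2518 RPM, and miR-495 is the lowest at 1.21 and 4.60 RPM.

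The highest level was that of miR-379 in both libraries, and the order of the others differed in part. In the peak library it ran from miR-379 through miR-127, miR-411, miR-382, miR-369-3p, miR-410 and miR-487b to miR-495. In the late library miR-411 stood above miR-127, and miR-487b stood above miR-410. The levels of miR-382 and miR-369-3p, 38.5 (34.1 to 43.2) and 38.0 (33.7 to 42.8) RPM by 95% Poisson intervals, did not differ beyond counting error in the late library. Those of miR-410 and miR-495, at 5.28 (3.75 to 7.22) and 4.60 (3.19 to 6.43) RPM, also overlapped there. The intervals of miR-410 and miR-487b overlapped in the peak library, at 4.46 (3.57 to 5.52) and 3.62 (2.82 to 4.59) RPM. Levels of different miRNAs are set side by side as read counts only, since each sequence is ligated and amplified with its own efficiency.

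Whether members shared a ratio was asked for each of the 28 pairs, with Fisher's exact test (two-sided) on the reads of both members in both libraries and Benjamini-Hochberg adjustment over the 28 pairs. The ratios differed in 23 pairs at an adjusted p under 0.05 and did not pass in 5. The same was not asked for pairs of other tag groups, so whether 23 of 28 is particular to the locus was not tested. The direct neighbours miR-379 and miR-411 differed by 1.76 log2 units (1.70 to 1.81), with the ratio of miR-379 below 0 and that of miR-411 above 0. The other direct neighbours, miR-369-3p and miR-410, differed by -0.34 (-0.93 to 0.25), with an adjusted p of 0.29 in the exact test. Among the 3 members with ratios below 0, miR-127 differed from miR-379 by 0.36 (0.31 to 0.41), and from miR-382 by 0.20 (0.01 to 0.39) at an adjusted p of 0.049 in the exact test. miR-382 and miR-379 differed by -0.16 (-0.34 to 0.03), an interval that includes 0. The 3 members that were called higher did not pass for any of their 3 pairs, but the intervals were wide, with 0.72 (-0.05 to 1.48) for miR-495 against miR-411, 0.22 (-0.26 to 0.70) for miR-487b against miR-411 and -0.50 (-1.40 to 0.40) for miR-487b against miR-495. These tests took reads as the unit, so they compare the 2 libraries. miR-411 entered its pairs without the reads that carry the letter change described below. With those reads its log2 ratio was 0.91 and not 1.21, and its pairs were not tested again.

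**Figure D3:**
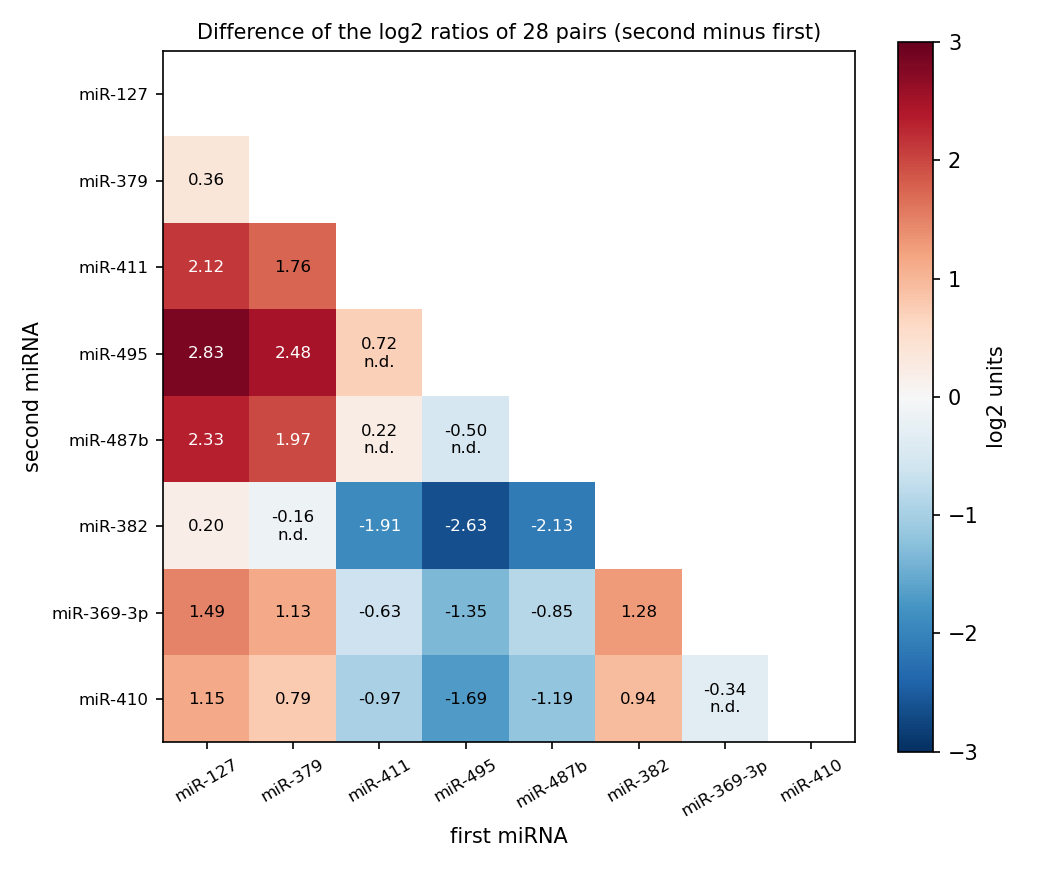
Each cell gives the log2 ratio (late over peak) of the miRNA in its row minus that of the miRNA in its column, for 28 pairs in gene order. In 5 cells marked n.d. the difference did not pass the adjusted p of 0.05, and the neighbours miR-379 and miR-411 stand 1.76 log2 units apart. Reads of miR-411 with the letter change in the seed are left out.

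Beside the number of reads, the tags of miR-411 showed a second difference between the libraries, in their sequence. Reads with G in place of A at position 5 (A5G, positions counted from 1 at nt 1 of the conserved miRNA, and A being the letter of the most abundant tag) made up 3007 of 9019 reads in the peak library and 1186 of 6563 in the late library. The share was 33.3% (32.4 to 34.3) and 18.1% (17.15 to 19.02), respectively. Position 5 lies in the seed. The most abundant tags without and with the change were these, and the changed letter is in capitals in the lower one.
miR-411 without A5G: atagtagaccgtatagcgtacg
miR-411 with A5G: atagtGgaccgtatagcgtacg
The tag without the change had 2552 and 2421 reads in the peak and late libraries, and the tag with it had 1691 and 663 reads. A5G was the only A-to-G change among the 8 members that reached 1% of reads with at least 20 reads in either library.

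The forms of miR-411 differed in their ratios. The form without A5G was at 315 RPM in the peak library and 728 RPM in the late library, a log2 ratio of 1.21 (1.15 to 1.26). The form with A5G was at 158 and 161 RPM, a log2 ratio of 0.02 (-0.07 to 0.12), so a difference of more than 0.12 log2 units in either direction lay outside its interval. Counted together, both forms were at 473 and 888 RPM. The log2 ratio of this sum was 0.91 (0.86 to 0.95), which is under 2-fold, and the call of miR-411 was then lost. A5G reads are left out of the count of miR-411 given above, since the change falls within the 16 nt that were searched.

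The A5G share was lower in the late library at both starts of the molecule. Among tags that began at nt 0 it was 37.4% (36.2 to 38.7) in the peak library and 20.4% (19.1 to 21.7) in the late library. Among tags that began at nt 1 it was 26.3% (24.8 to 27.8) and 14.8% (13.5 to 16.2). As background, adenosine deaminases convert A to inosine in double-stranded RNA, and inosine is read as G. The source of the letter change was not tested, and a genomic sequence of these goats was not used here. The mature sequence of MIR411B was not compared with either form, so whether reads came from that gene was not tested. Over the 559 tag groups that reached 100 RPM in either library, 7 of 2446 positions with A (0.286%) had at least 10% of reads with G in both libraries. The members were not left out of these groups, so the 7 include the A5G position of miR-411 at both of its starts.

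**Figure D4:**
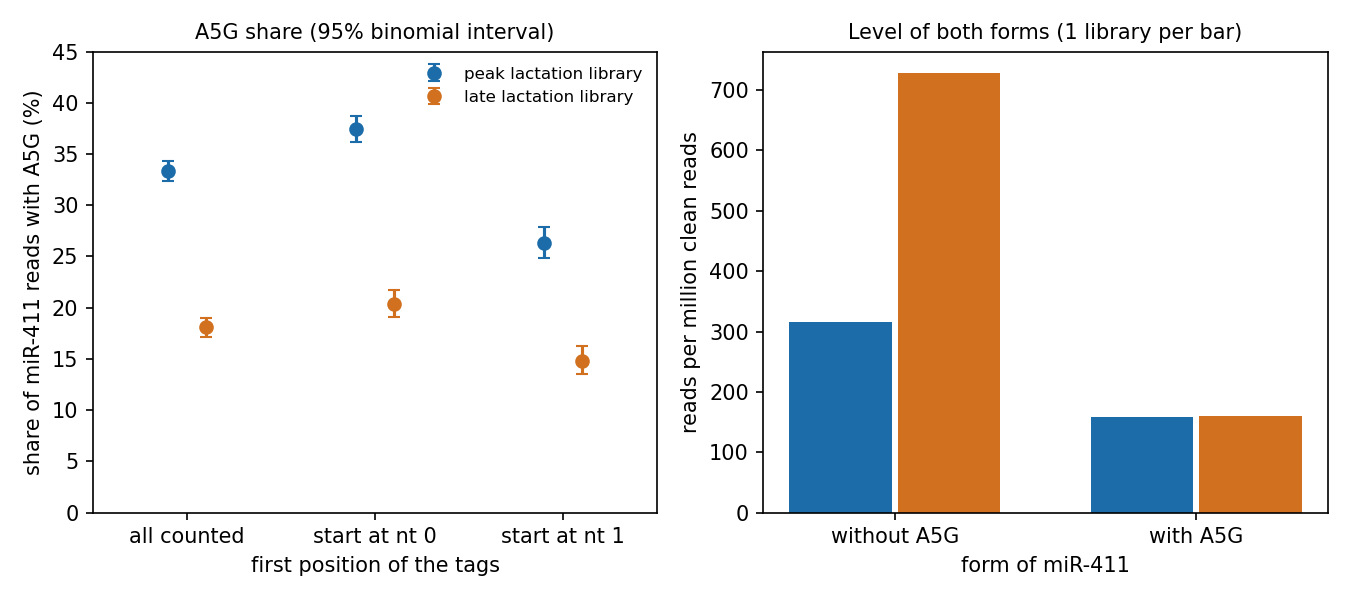
Left, the share of miR-411 reads with A5G (%) for all counted reads and by first position of the tag, with 95% binomial intervals; right, the level (RPM) of the forms without and with A5G, 1 library per bar. The share is 33.3% in the peak and 18.1% in the late library, while the level of the A5G form is 158 and 161 RPM.

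Some smaller letter changes were picked after their values were seen. miR-379, the neighbour of miR-411, had A5G in 537 peak reads and 145 late reads, a share of 0.77% and 0.78%, respectively. In miR-369-3p it was found in 10 and 1 reads. miR-411 also held a C9T change, in 4.13% of reads in the peak library and 4.05% in the late library, and here the share did not differ beyond its interval of 3.65 to 4.65% in the peak library. C9T was more frequent among tags that began at nt 0, with 6.07% and 6.29%, than among those that began at nt 1, with 1.14% and 0.98%. An A14C change was seen in the peak library for miR-127, with 257 reads against 1 in the late library, and for miR-379, with 582 reads against 0. It was not particular to the locus, because in all 75 tag groups with an A at nt 14 and at least 1000 reads in each library its share was higher in the peak library, with a median of 0.75% there and 0 in the late library.

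Among the tags counted, the 5′ ends were nearly fixed in most members. The search for 7 members used nt 2 to 17, so their tags that began at nt 3 or later were not counted. Such starts could be seen in miR-487b alone, which was searched by nt 5 to 20. Tags of miR-127 began at nt 1 in 99.2% of reads in the peak library and 98.8% in the late library, and those of miR-379 in 99.7% of reads in each. miR-382 began at nt 1 in 91.9% and 88.4% of reads. miR-411 was the exception among the abundant members. It began at nt 0 in 59.4% of reads (58.1 to 60.6) in the peak library and in 56.1% (54.7 to 57.4) in the late library, and at nt 1 in 40.6% and 43.3%. A start at nt 0 moves the seed by 1 letter when it is counted from the end of the molecule. The nt 1 form of miR-411 was the tag given here, with 1806 reads in the peak library and 1876 in the late library.
miR-411 from nt 1: tAGTAGACcgtatagcgtacg
In miR-487b, 40.6% of the 69 peak reads (28.9 to 53.1) and 18 of the 72 late reads (15.5 to 36.6%) began at nt 3, and these intervals overlap.

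The 3′ ends of miR-379 differed between the libraries. Reads of miR-379 that ended at nt 21 made up 44.4% (44.1 to 44.8) in the peak library and 36.3% (35.6 to 37.0) in the late library, and those that ended at nt 22 made up 30.6% (30.2 to 30.9) and 38.4% (37.7 to 39.1). At nt 22 the molecule ended in c, t or a, and these forms of the same miRNA did not move together. They are shown with the seed in capitals because they differ in the last letter alone.
miR-379 ending in c: tGGTAGACtatggaacgtaggc
miR-379 ending in t: tGGTAGACtatggaacgtaggt
miR-379 ending in a: tGGTAGACtatggaacgtagga
The form ending in c had 12120 reads in the peak library and 5704 in the late library, 17.3% and 30.7% of the reads of miR-379. The form ending in t had 4680 and 645 reads, or 6.69% and 3.47%. The form ending in a had 4322 and 718 reads, or 6.18% and 3.86%. The share of the c form was thus higher in the late library and the shares of the t and a forms were lower, each beyond its 95% interval. The most abundant tag of miR-379, which ends at nt 21, had a log2 ratio of -0.84 by itself.

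The forms of miR-369-3p that end at nt 21 also differed in their shares. The tag ending in c had 63 reads in the peak library and 6 in the late library, or 13.0% (10.2 to 16.3) and 2.14% (0.79 to 4.59) of its reads, while the main tag ending in t had 311 and 215 reads, or 64.3% and 76.5%. In miR-369-3p the c form therefore had the lower share in the late library. A c at nt 21 was also seen within a longer tag, with 19 and 1 reads, so it was not a form of the end alone.
miR-369-3p ending in t: aATAATACatggttgatcttt
miR-369-3p ending in c: aATAATACatggttgatcttc
For miR-127 the end at nt 21 held 60.3% (59.7 to 60.9) and 59.4% (58.0 to 60.7) of reads, which overlap, but the end at nt 20 held 18.6% (18.1 to 19.1) and 14.9% (14.0 to 15.9) and that at nt 22 held 10.97% (10.6 to 11.4) and 14.5% (13.6 to 15.5), which do not. For miR-411 it held 73.3% (72.2 to 74.4) and 80.3% (79.3 to 81.4), which do not. For miR-382 the end at nt 22 held 75.8% (73.3 to 78.2) and 79.6% (74.4 to 84.1). The mean length of the reads of all members but miR-495 was between 20.97 and 22.09 nt in both libraries, and that of miR-495 was 24.8 nt in the peak library, where 3 of its 23 reads were outside 20 to 24 nt.

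**Figure D5:**
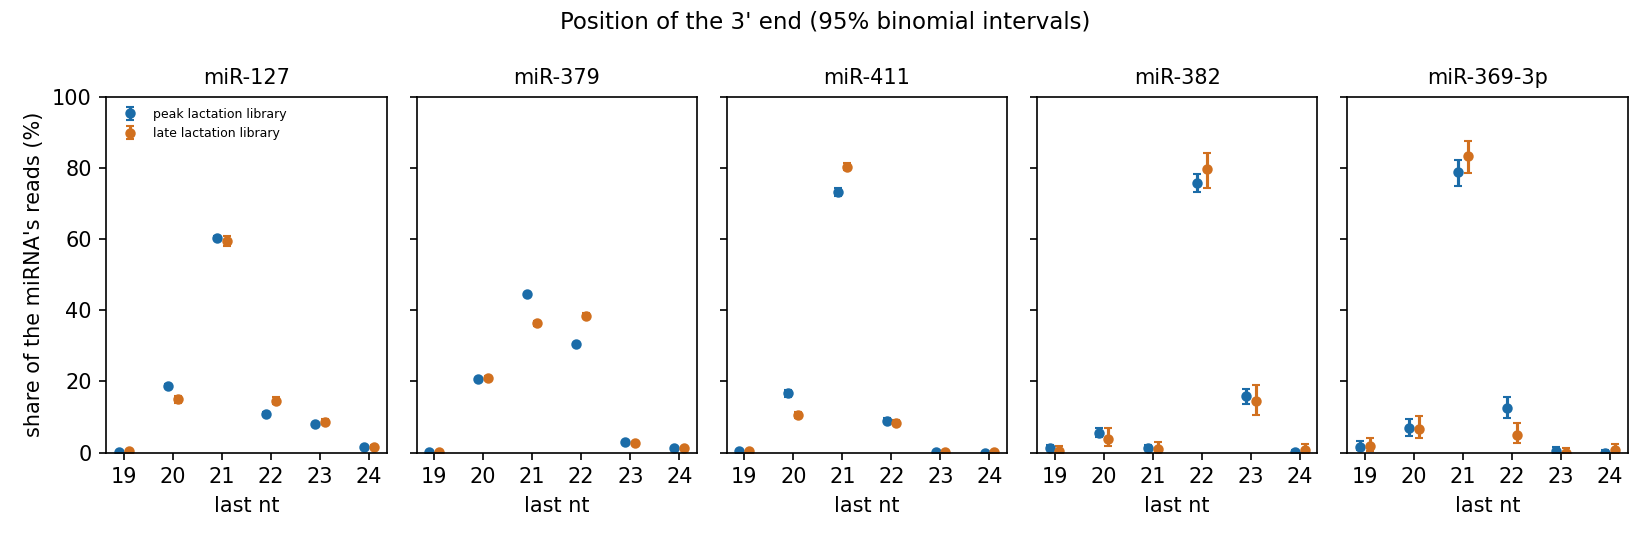
The share of reads (%) by the last position of the tag is plotted for the 5 members with at least 200 reads in each library, with 95% binomial intervals. In miR-379 the end at nt 21 holds 44.4% in the peak and 36.3% in the late library and that at nt 22 holds 30.6% and 38.4%, while in miR-127 the end at nt 21 holds 60.3% and 59.4%.

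Properties of the libraries that differed are set beside these ratios, and their part in the results was not tested. The late library was the shallower, with 7385833 clean reads against 19044002, so that 1 read stood for 0.135 RPM there and for 0.0525 RPM in the peak library. Clean reads made up 73.9% of its high-quality reads against 98.5%, and reads with 5′ adaptor contamination made up 14.0% against 0.049%. The GC content of the most abundant tag was 61.9% for miR-127, 47.6% for miR-379 and 50% for miR-382, and between 23.8% and 45.5% for the 5 members with ratios above 0. Over all tag groups the median log2 ratio was 0.21 at a GC content under 40%, -0.26 from 40 to under 50% and 0.17 at 50% and over.

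Of the markers of cell types in the gland, 1 of 9 epithelial and 1 of 4 stromal miRNA names were counted, by the primers of the study. miR-375, an epithelial miRNA, was at 452 RPM in the peak library and 4748 RPM in the late library, a log2 ratio of 3.39. miR-214, a miRNA of stromal cells, was at 2.10 and 120 RPM, a log2 ratio of 5.83. Both ratios were larger than that of any member. The other epithelial and stromal names were not counted, so whether they go the same way is not known. Names in the other marker lists (endothelial, red blood cell, immune, muscle and neural) were not counted either. In tissue RNA, fewer cells of a type and fewer molecules per cell cannot be told apart. The labelled tissue was set beside miR-375 alone, and 1 name is a weak check.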

How the data were processed

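The authors sequenced 1 small RNA library per stage on an Illumina 1G Genome Analyzer, removed low-quality reads and adaptors, discarded reads under 18 nt and collapsed identical reads. They deposited raw counts of reads per distinct tag, and counts of reads at each filtering step, without normalization, names or mapping. The tags carry no coordinates, and the authors' later mapping to the sheep genome was not used here.

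Tags were joined by sequence and scaled to clean reads. miR-487b was found by the last 16 nt of its primer in the study. For the other 7 members no file held a mature sequence, so nt 2 to 17 were written from general knowledge of the conserved miRNAs. The plan had been to leave these 7 uncounted in that case, and their names rest on this step. The counts by name in the authors' supplementary table were not used here. Members and lists were chosen with earlier results of these data known.

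The rule for named items was all 8 members, and A-to-G changes of at least 1% with at least 20 reads. P is the exact two-sided Audic-Claverie P. In simulated counts of 9911 tested tag groups the rule found 99 of 100 groups changed 3-fold and 100 of 100 changed 6-fold, and it called 78 unchanged ones. The counts were drawn with Poisson error alone, so these numbers cover counting error only. Changes were set only in groups above a level that miR-495 and miR-410 did not reach. Gene order was read from RefSeq (ARS1.2). Calculations ran in R 4.3.3 and in Python 3.11.15 with scipy 1.17.1, pandas 2.3.3, numpy 2.4.6 and matplotlib 3.10.9. DESeq2 1.42.0 gave median-ratio factors and edgeR 4.0.16 gave TMM factors, and neither was used for a test. Intervals cover counting error only, since PCR copies are not independent molecules.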

Additional observations from a re-analysis of the deposited data

How the results depend on the processing

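Each of the 8 log2 ratios was recomputed under 10 alternatives (4 scalings, 4 rules on the tags counted, 1 read added to both libraries and, chosen after the data were seen, the most abundant tag alone). All 80 values had the sign of the reported value, and 79 stayed on the same side of the call. The exception was miR-411 with up to 1 mismatch allowed, which takes in the A5G reads, with a log2 ratio of 0.92 and no call. With at least 10 RPM required in one library, 1 member was called higher, because miR-495 and miR-487b do not reach that level. The lowest and highest values were -0.92 and -0.82 for miR-127, -0.84 and -0.46 for miR-379, 0.92 and 1.30 for miR-411, 1.91 and 3.17 for miR-495, 1.43 and 2.32 for miR-487b, and 0.18 and 0.35 for miR-410. Pairs that differed numbered 22 with tags beginning at nt 1 and 23 with the most abundant tag. The pairs were not tested with 1 mismatch allowed. Totals without the 10 most abundant tags added 0.09 to each log2 ratio, but let 21393 groups pass 1 RPM, with a median of 0.96. Relative to that median, 3 members were above and 5 below. Disjoint groups by nt 2 to 17, also chosen after the data were seen, gave 34.3% called higher and 21.2% lower. Totals of miRNA reads, tags identical to a reference sequence, the second arms and the other miRNAs of the locus were not run, since no table of mature miRNAs was used here, and the TMM and median-ratio factors were taken over tag groups. No paired analysis was possible because each stage is 1 pooled library.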
